A study of Mus musculus with 162 samples.

Results

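The comparison concerns single neurons that the submitters gave the type label MGE-derived 2 and passed in quality control, set apart by the Cre driver line they were taken from. Of 162 cells in the series, 148 passed, and 24 of these carried the label: 7 cells from the Lhx6 line and 17 from the Htr3a line. They were chosen by their labels alone, and all genes of the count table were compared between the lines with the type label held fixed. All 24 were mouse cells of age E17.5-E18.5 (embryonic days). Cytosol was aspirated through a patch-clamp pipette and the total RNA in it was sequenced, so each sample stands for 1 cell. Each group is named by its Cre driver, and no reporter, other allele, agent or treatment is named for either. The labels do not say how a cell was picked within a line, nor whether the 2 lines were bred on the same strain. The letters MGE are not spelled out in the labels and were read as the medial ganglionic eminence.

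The medial ganglionic eminence is a zone of the ventral forebrain that gives rise to the cortical interneurons that later make somatostatin or parvalbumin. Lhx6, a LIM homeodomain transcription factor, is switched on as these cells leave the eminence and is needed for their migration and identity. Sox6 acts downstream of it, and Sst encodes the neuropeptide somatostatin. Htr3a encodes an ionotropic serotonin receptor that is known mainly from interneurons of the caudal ganglionic eminence. A driver line marks the cells in which its promoter was active at any earlier time, so the same type of cell can be found in more than 1 line.

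The labels tie no cell to an animal, litter or culture. Each line therefore counts as 1 sample, no difference was tested, and line, animals, strain and batch cannot be told apart. For each gene 2 measures are given. The log2 difference is the mean over cells of log2(CPM + 1) in the Lhx6 line minus that in the Htr3a line, where CPM, the unit of all levels here, is a gene's counts scaled to a common total for every cell. The fold is the ratio of CPM after summing the counts of all cells of a line. A gene was called at least 2-fold higher or lower only where both measures passed 2-fold in the same direction. SDs are between cells. Bounds from counts cover counting error only, because the reads carry no molecular identifier and several can stem from the same molecule. Intervals for a share of cells take the cells of a line as separate draws, which the labels do not establish.

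Within this label the lines differed in how many genes a cell held. Counts per cell ran from 4554020 to 8250293 in the Lhx6 line (median 7140123), spread over 3675 to 5191 genes (median 4540). In the Htr3a line they ran from 4415109 to 19310050 (median 9325197), spread over 2747 to 14810 genes (median 6494), and 13 of the 17 lay above the richest Lhx6-line cell. With every cell thinned to 1710224 counts the ranges were 3401 to 4686 and 2282 to 13693 genes, and 14 of 17 lay above. The cells with most genes also held markers of microglia, the immune cells of the brain. At least 3 of 14 microglia markers reached 10 counts in 6 of the 17 Htr3a-line cells and in 0 of the 7 Lhx6-line cells, and 4 cells held all 14. The 14 markers summed to 0 to 1.53 CPM per cell in the Lhx6 line and to 0 to 22191 CPM in the Htr3a line. In the Lhx6-line cells 8 of the 14 were at 0, among them Aif1, Csf1r, Cx3cr1, Tyrobp and P2ry12.

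**Figure D1:**
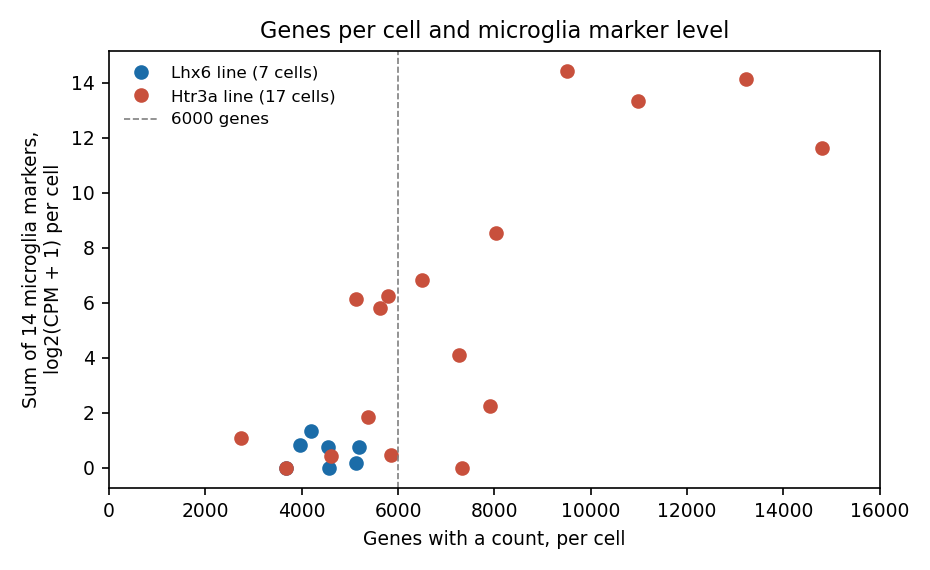
Each point is 1 cell; the x axis gives the number of genes with a count and the y axis the sum of 14 microglia markers as log2(CPM + 1), with the 2 lines in colour and a dashed line at 6000 genes. The 7 Lhx6-line cells sit together at 3675 to 5191 genes and near 0, and the 4 Htr3a-line cells with most genes (9510 to 14810) have the highest marker sums.

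Of those 6 cells, 3 held little of the markers of their label. Htr3a-line cells 9, 10 and 11, with 14810, 13214 and 10975 genes, held Lhx6 at 41.1, 9.35 and 24 CPM and Sst at 1.26, 0 and 0 CPM. Sox6 stood at 33.4, 1.35 and 41.0 CPM in them, and their microglia markers summed to 3123, 18145 and 10406 CPM. Cell 2 had the highest marker sum, 22191 CPM, with Lhx6 at 335, Sst at 152 and Sox6 at 35.8 CPM. The other 2, cells 13 and 16, had sums of 374 and 113 CPM with Lhx6 at 435 and 1616 CPM. Outside these 6, Htr3a-line cell 8, with 3675 genes, held Lhx6 at 32.5 and Sst at 0 CPM but Sox6 at 269 CPM, and it is part of both subsets used below. Results are therefore given with all 17 Htr3a-line cells, with the 11 that fall short of this marker limit (called cells without microglia markers, though their marker sums reached 74.8 CPM), and with the 8 that had fewer than 6000 genes. The latter 2 choices leave a median of 5620 and 5249 genes per cell, nearer to the 4540 of the Lhx6 line. What part the microglial RNA and the number of genes have in any difference beyond these values was not tested.

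The labelled type was read from its markers. Lhx6 (chromosome 2, 36081953 to 36105408, minus strand, GRCm38) was found in all 24 cells, at 469 to 2049 CPM (median 1268) in the Lhx6 line and 9.35 to 1978 CPM (median 357) in the Htr3a line. The ranges overlapped, with 7 of 17 Htr3a-line cells at or above the lowest Lhx6-line cell. Its log2 difference was 2.04 (SD 0.79 and 2.29), and by summed counts it stood at 1316 against 705 CPM, 1.87-fold, so it did not pass 2-fold by both measures. Sox6 (chromosome 7, 115470872 to 116038796, minus strand) was also found in all 24 cells, at 56.4 to 369 CPM (median 122) against 1.35 to 421 CPM (median 166). Its log2 difference with all 17 Htr3a-line cells was 0.32 (SD 0.92 and 1.93), though its median was higher in the Htr3a line. In the 11 cells without microglia markers Sox6 stood at 30.5 to 381 CPM (median 195) and Lhx6 at 32.5 to 1978 CPM (median 810). In the 8 with fewer than 6000 genes the medians were 194 CPM for Sox6 and 291 CPM for Lhx6. The 6 markers of this origin (Lhx6, Sst, Sox6, Nxph1, Satb1 and Erbb4) summed to 3413 to 6228 CPM in the Lhx6 line and 41.4 to 5774 CPM in the Htr3a line, or 1732 to 5774 CPM in the 11 cells without microglia markers.

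Sst (chromosome 16, 23889573 to 23890958, minus strand) was the marker of the 3 that passed 2-fold by both measures. All 7 Lhx6-line cells held it, at 445 to 2310 CPM (median 1022), and 12 of 17 Htr3a-line cells did, at 0 to 1697 CPM (median 152). The lowest Lhx6-line cell was matched by 6 of the 17. By summed counts Sst was 2.67-fold higher in the Lhx6 line, at 1065 against 399 CPM, and its log2 difference was 4.29 (SD 0.84 and 4.32), about as large as the wider SD. The difference stood at 2.90 without the cells with microglia markers and at 3.26 with the cells of fewer than 6000 genes, where the summed ratio was below 2-fold (0.89 on the log2 scale).

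**Figure D2:**
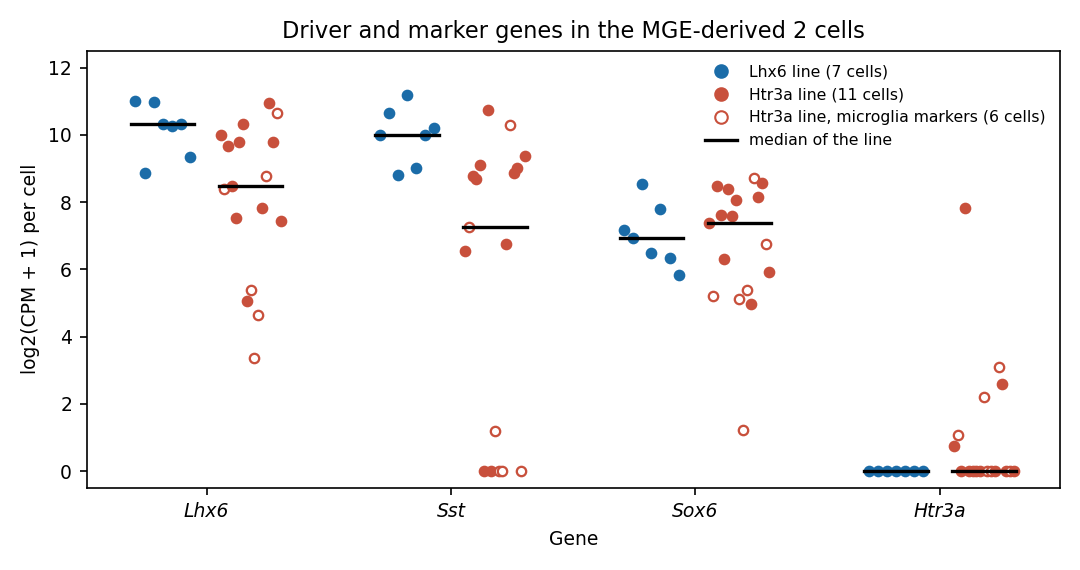
The level of 4 genes in each of the 24 cells as log2(CPM + 1), by line; open symbols are the 6 Htr3a-line cells with microglia markers and bars are medians. The Lhx6-line cells lie close together for Lhx6 and Sst, while the Htr3a-line cells reach from the same levels down to 0 for Sst; Htr3a itself is at 0 in all 7 Lhx6-line cells.

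The driver gene Htr3a (chromosome 9, 48899213 to 48911099, minus strand) was low in both lines. It was at 0 in all 7 Lhx6-line cells (floor of 3 counts 0.0648 CPM) and was found in 6 of 17 Htr3a-line cells, at up to 226 CPM in cell 4. With the 7 cells taken as separate draws, the share holding it was 0 to 41.0% (exact Clopper-Pearson 95% interval). Htr3a was at least 154-fold lower against the floor, and at least 17.9-fold lower without cell 4. The log2 difference of -1.03 stood at -0.60 without cell 4 and between -0.96 and -0.90 without cell 9, 13 or 14, each of which ended the call. Of the 5 markers of caudal origin read, Htr3a, Prox1 and Sp8 were at 0 in every Lhx6-line cell, and Prox1 and Sp8 also in the 11 Htr3a-line cells without microglia markers. The other 2 were present in the Lhx6 line. Nr2f2, a nuclear receptor of caudal interneurons, was found in 6 of 7 cells at up to 305 CPM (median 40.6) against up to 184 CPM (median 0.0900), and Adarb2 in 1 of 7 cells at 328 CPM. The 5 together summed to 0 to 329 CPM (median 131) in the Lhx6 line and 0 to 226 CPM (median 34.8) in the Htr3a line, against 748 to 7390 CPM in the 11 CGE-derived cells of that line. The longer list of 16 caudal genes summed to 317 to 2040 CPM in the Lhx6 line and 227 to 1653 CPM in the Htr3a line. Of the striatal and pallidal genes Lhx8, Isl1, Chat, Meis2 and Zic1 were at 0 in the Lhx6 line, while the whole list of 17 summed to 0 to 819 CPM (median 185) there and 0.679 to 1001 CPM (median 206) in the Htr3a line.

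Over all genes the Lhx6-line cells were lower more often than higher. Of 12086 genes with a count in at least 4 of the 24 cells, 887 (7.34%) were at least 2-fold higher and 3332 (27.6%) at least 2-fold lower in the Lhx6 line, and the median log2 difference was -0.71. The split differed with the choice of Htr3a-line cells. Without the 6 cells with microglia markers it was 1125 (12.7%) higher and 1925 (21.8%) lower of 8849 genes (median -0.31), and with the 8 cells of fewer than 6000 genes 1297 (17.3%) higher and 1453 (19.4%) lower of 7504 genes (median 0.06). With both measures centred on the median of all genes it was 2028 (16.8%) higher and 1637 (13.5%) lower. Few genes separated the lines cell by cell. In 1 gene (0.00827%) every Lhx6-line cell was above every Htr3a-line cell and in 0 genes (0%) below. That gene, Gm10320, lay between 2.24 and 9.09 CPM against 0 to 1.20 CPM and shares 53.7% of its 31-base stretches with transcripts of Sec61b, so its counts are uncertain.

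The genes named here come from the 12 with the largest log2 difference in each direction among 263 higher and 1155 lower genes that held at least 20 CPM and a count in at least 50% of the cells of the higher line and did not rest on its top cell. No cell of either line ended the call of any of the 24 when left out, which the choice of genes by this rule largely set in advance. Thinning all cells to 4415109 counts changed the number of cells with a count by at most 1.

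Ranbp6, which encodes a nuclear import receptor of the importin family, stood first. It was found in all 7 Lhx6-line cells at 56.7 to 1634 CPM (median 476) and in 8 of 17 Htr3a-line cells at 0 to 421 CPM (median 0). The summed level was 8.64-fold higher and the log2 difference 5.75 (SD 1.54 and 3.41). Only 4 Htr3a-line cells reached the lowest Lhx6-line cell, so the ranges overlapped at the low end of the Lhx6 line. Vstm2a, which encodes a secreted protein with an immunoglobulin domain, was present at 266 to 1796 CPM (median 1065) against 0 to 1030 CPM (median 20.8), 6.97-fold higher with a log2 difference of 5.32 (SD 0.88 and 2.99). Of the Htr3a-line cells 3 entered the Lhx6-line range and 14 lay below it.

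Grin3a encodes the NMDA receptor subunit GluN3A, known from somatostatin interneurons. It was found in 7 of 7 cells at 159 to 1546 CPM (median 366) and in 10 of 17 cells at 0 to 903 CPM (median 2.14). It was 3.50-fold higher by summed counts and its log2 difference was 5.25 (SD 1.17 and 3.92). The Htr3a line was split here, with 4 cells within the Lhx6-line range and 7 cells at 0. Among the cells with fewer than 6000 genes its log2 difference was 4.20 but its summed ratio 0.71 on the log2 scale, so that it no longer passed by both measures, the only 1 of the 24 named genes to be lost in either subset.

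In 2 genes the Lhx6-line cells lay close together. Mageh1, a member of the MAGE family, was found at 147 to 427 CPM (median 229) in the Lhx6 line and at 0 to 192 CPM (median 10.9) in the Htr3a line, where 1 cell reached the lowest Lhx6-line cell. Tshz3, a zinc finger transcription factor, was found at 350 to 1624 CPM (median 785) against 0 to 773 CPM (median 102), with 5 Htr3a-line cells in range. The log2 difference of Mageh1 was 4.75 (SD 0.58 and 3.04). That of Tshz3 was 4.60 (SD 0.69 and 3.95). Tshz3 stood at 2.36 without the cells with microglia markers, and Mageh1 at 4.72.

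Each of the others described was missing from at least 1 Lhx6-line cell. Cyp46a1, the cholesterol 24-hydroxylase of neurons, was found in 6 of 7 and 8 of 17 cells and was 14.5-fold higher (184 against 12.7 CPM). Syt13, an atypical synaptotagmin, was 6.41-fold higher and Fbxl15, an F-box protein of a ubiquitin ligase, 8.07-fold, each in 6 of 7 and 7 of 17 cells. Of the exon bases of Fbxl15, 25.6% also belong to Cuedc2 on the other strand. Spon1, a secreted matrix protein that guides axons, was 9.62-fold higher (5 of 7 and 6 of 17 cells). Abtb2, a protein with ankyrin repeats and a BTB domain, was 4.72-fold higher. Esyt2, which tethers the endoplasmic reticulum to the plasma membrane, was at 175 against 2.53 CPM, and the Htr3a-line cells held at most 17.7 CPM of it.

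**Figure D3:**
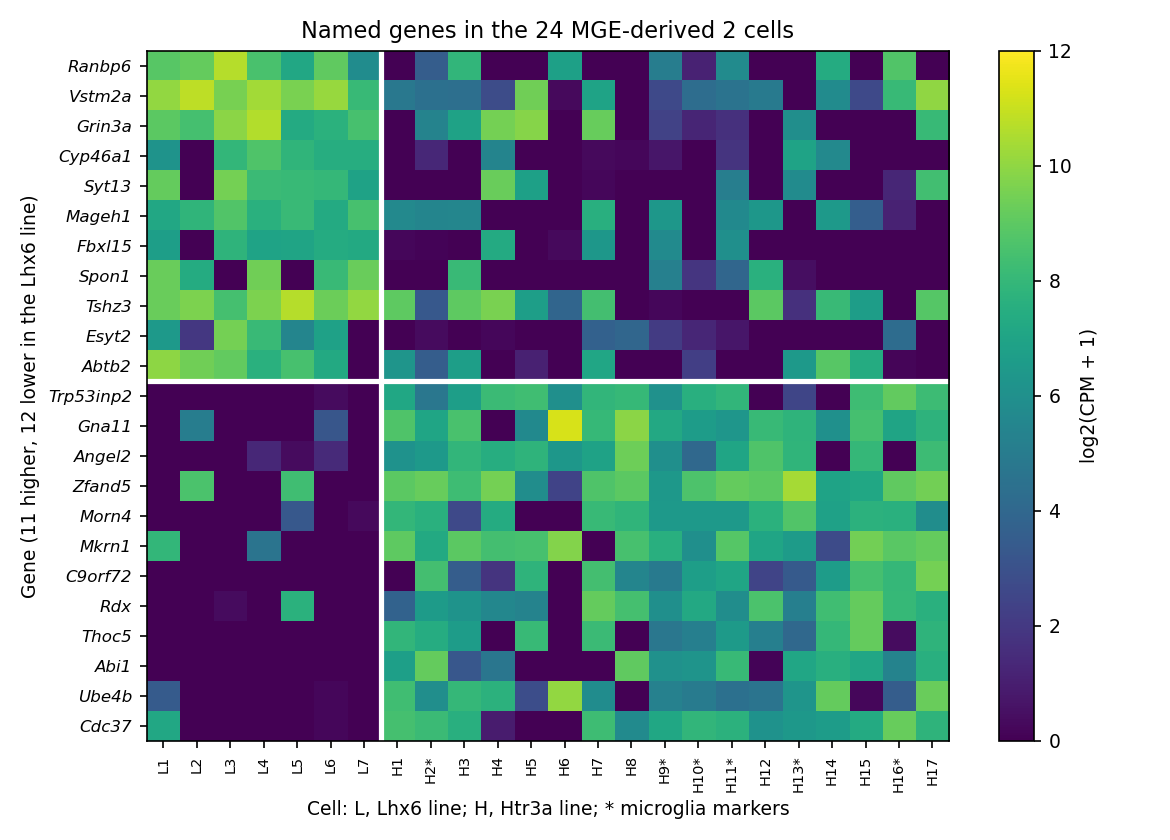
Levels of 23 named genes (rows) in each of the 24 cells (columns) as log2(CPM + 1); L marks Lhx6-line and H Htr3a-line cells, and an asterisk the 6 cells with microglia markers. The upper 11 genes are present in nearly all Lhx6-line cells and scattered over the Htr3a line, and the lower 12 are dark in most Lhx6-line cells.

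The genes lower in the Lhx6 line were present in most Htr3a-line cells and absent from most Lhx6-line cells. Trp53inp2, a regulator of autophagy, was found at 0.280 CPM in 1 Lhx6-line cell and at 0 in the other 6, against 0 to 552 CPM (median 192) in 15 of 17 Htr3a-line cells. Its log2 difference was -6.23 (SD 0.13 and 2.85), and 15 Htr3a-line cells lay above all Lhx6-line cells. Gna11, a G protein alpha subunit of the Gq family, was found in 2 of 7 and 16 of 17 cells, at up to 33.4 CPM against a median of 212 CPM. It was 64.0-fold lower by summed counts, and 16 Htr3a-line cells lay above the highest Lhx6-line cell.

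In 3 of the 12 no Lhx6-line cell held a count. These were C9orf72, which acts in endosome traffic and autophagy, Thoc5, a subunit of the THO complex of mRNA export, and Abi1, an actin regulator of the WAVE complex. They were found in 15, 14 and 14 of the 17 Htr3a-line cells, with medians of 97.6, 90.5 and 72.9 CPM. Against a floor of 3 counts over the Lhx6 line they were at least 2468-fold, 2587-fold and 2133-fold lower. Counting error alone sets those bounds. With the 7 cells taken as separate draws, 0 counts leave a share of cells of up to 41.0% (exact Clopper-Pearson 95% interval). That interval does not cover differences between animals, which no label names. The smallest log2 difference among the 3 was -5.19.

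Zfand5, a zinc finger protein that promotes breakdown by the proteasome, was the only 1 of the 12 found in all 17 Htr3a-line cells, at 4.30 to 1328 CPM (median 497). The Lhx6 line held it in 2 cells, at up to 382 CPM, which gave 5.01-fold by summed counts beside a log2 difference of -5.72. Mkrn1, a ubiquitin ligase, was 7.67-fold lower, Rdx (radixin, a linker of actin to the membrane) 6.67-fold and the Hsp90 cochaperone Cdc37 7.83-fold, each with counts in 2 of 7 Lhx6-line cells. Angel2, an RNA processing enzyme, Morn4 and Ube4b, an enzyme that extends ubiquitin chains, were at 0.454, 1.42 and 1.68 CPM in the Lhx6 line against 167, 158 and 191 CPM. All 12 passed 2-fold by both measures with the 11 and with the 8 Htr3a-line cells as well.

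Gene lists are set beside the share of all genes called, 7.34% higher and 27.6% lower with all cells. Of 16 markers of medial origin, 2 were at least 2-fold higher, among them Sst, and 2 lower (Maf and Cux2), with a median log2 difference of 0.20. Without Lhx6-line cell 1, 3, 4 or 5 or Htr3a-line cell 6, 10 or 16, 1 higher call was left. Maf, a transcription factor of somatostatin and parvalbumin interneurons, was found in 6 of 7 cells at 0 to 302 CPM (median 14.6) and in 17 of 17 cells at 2.14 to 832 CPM (median 94.2). It was 3.46-fold lower. Its log2 difference of -2.62 (SD 3.06 and 2.33) stood at -3.09 and -3.27 in the 2 subsets. Cux2, a homeodomain factor, was found in 5 of 7 cells at up to 211 CPM and in all 17 at 0.253 to 358 CPM (median 29.7), 3.85-fold lower.

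Of 10 general markers of GABAergic neurons 1 was higher and 3 were lower, close to the 27.6% of all genes called lower, with a median of -1.05 against -0.71 over all genes. Dlx2, a homeodomain factor of ventral forebrain neurons, was found in 5 of 7 cells at 0 to 220 CPM (median 162) and in 17 of 17 at 8.0 to 2057 CPM (median 287). It was 3.53-fold lower and 13 Htr3a-line cells lay above the highest Lhx6-line cell. The GABA-synthesizing enzyme genes did not pass, Gad1 at 524 against 464 CPM and Gad2 at 307 against 488 CPM. Abat, the enzyme that breaks GABA down, was at 0 in the Lhx6 line and in 10 of 17 Htr3a-line cells above it. The count of lower genes was 1 of 10 without the cells with microglia markers (Dlx2), against 21.8% of all genes, and the median was -0.76.

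Of 11 measured GABA-A receptor and chloride transporter genes 4 were at least 2-fold higher in the Lhx6 line and 0 lower, against 7.34% and 27.6% of all genes, with a median of 0.36. Without Lhx6-line cell 7, 2 of the 4 calls were left. Summed over the list, the Lhx6-line cells held 488 to 2389 CPM (median 1055) and the Htr3a-line cells 35.6 to 1416 CPM (median 308). The count was 5 of 8 with a median of 1.25 without the cells with microglia markers, and 5 of 7 with a median of 1.69 in the cells with fewer than 6000 genes. These settings pass 12.7% and 17.3% of all genes as higher.

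Chloride transporters set the direction of the current through these receptors. Slc12a2, the chloride importer NKCC1, was 5.02-fold higher, at 48.9 against 9.74 CPM, in 3 of 7 and 6 of 17 cells, and 1.21-fold without Lhx6-line cell 5. The call was lost without Lhx6-line cell 5, 6 or 7 (log2 differences of 0.35, 0.98 and 0.78), and the exporter gene Slc12a5 (KCC2) stood at 76.7 against 48.2 CPM.

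Of 21 presynaptic release genes 3 were higher and 3 lower, where 7.34% and 27.6% of all genes were, with a median of 0.57. Syt1, the calcium sensor of fast release, was at 342 to 3673 CPM (median 987) in the Lhx6 line and 0 to 1096 CPM (median 93.8) in the Htr3a line, with 4 Htr3a-line cells in range. It was 4.28-fold higher with a log2 difference of 3.46 (SD 1.13 and 2.92). Syp, synaptophysin of the vesicle membrane, was 2.90-fold higher at 222 against 76.8 CPM. Lower were the scaffold gene Bsn, 10.9-fold, and with calls that ended when 1 cell was left out Stx1a (2.15-fold) and Syn3 (2.85-fold). The third higher gene, Syt4, was lost without Lhx6-line cell 2 or 7.

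Potassium channel genes of fast-spiking cells lay on opposite sides. Kcnc2 was found in 6 of 7 and 10 of 17 cells and was 3.52-fold higher, at 281 against 79.8 CPM. Kcnc1, its close relative, was at 0 in all 7 Lhx6-line cells and present in 12 of 17 Htr3a-line cells at up to 452 CPM (median 12), at least 759-fold lower. Over the 25 voltage-gated channel genes measured, 4 were higher and 6 lower, against 7.34% and 27.6% of all genes, with a median of -0.45. Without Lhx6-line cell 3 or 4 only 2 of the higher calls were left. Among 14 ionotropic glutamate receptor genes 1 was higher (Grin3a) and 4 lower, about the 27.6% of all genes called lower, with a median of -0.34. Of the 4 lower calls 1 was left without Lhx6-line cell 1, and 2 without Lhx6-line cell 2, 3, 5 or 6 or Htr3a-line cell 9.

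Neurexins link the presynaptic membrane to partners across the synapse and have many splice forms, of which only the gene level was read here. Neither Nrxn2 nor Nrxn3 passed 2-fold by both measures. Nrxn2 was at 0 in 4 Lhx6-line cells, and cell 7 alone held 598 CPM, so that its log2 difference was -2.09 while its summed level was 2.64-fold higher. Nrxn3 was found in all 24 cells, at 1.04 to 958 CPM (median 249) against 26.4 to 2988 CPM (median 381). The low value was that of Lhx6-line cell 1, and the log2 difference was -0.95 (SD 3.09 and 1.51). Of 24 neurexin ligands and partners 1 was higher and 6 lower, near the 7.34% and 27.6% of all genes, with a median of -0.35.

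RNA-binding splicing regulators, the proteins that choose among exons, were read as a list of 29 genes. Of these 11 were lower and 1 higher, against 27.6% and 7.34% of all genes, with a median of -1.17. The count was 9 lower and 1 higher of 28 without the cells with microglia markers (median -1.0) and 9 lower and 2 higher of 27 with the cells of fewer than 6000 genes (median -0.65), settings that pass 21.8% and 19.4% of all genes as lower. Celf1 was found in 4 of 7 cells at 0 to 307 CPM (median 2.52) and in 17 of 17 at 13.8 to 822 CPM (median 422). It was 5.09-fold lower with a log2 difference of -4.39 (SD 3.84 and 1.70), and 10 Htr3a-line cells lay above the highest Lhx6-line cell.

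Among the others called lower, Celf2 was 3.10-fold lower, at 0 to 750 CPM (median 103) against 195 to 2643 CPM (median 604). Elavl3, which binds AU-rich RNA in neurons, was 3.95-fold lower at 38.5 against 152 CPM, and Nova2, which binds intronic clusters, 3.16-fold. Mbnl1, of the muscleblind family, held 1 count in 1 of 7 cells and was found in 11 of 17 at up to 331 CPM. The 1 higher gene was Khdrbs3, a STAR-family regulator of neurexin splicing, found in 5 of 7 cells at 0 to 724 CPM (median 293) and 12 of 17 at 0 to 118 CPM (median 5.84). It was 8.84-fold higher with a log2 difference of 2.89 (SD 4.18 and 2.92).

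**Figure D4:**
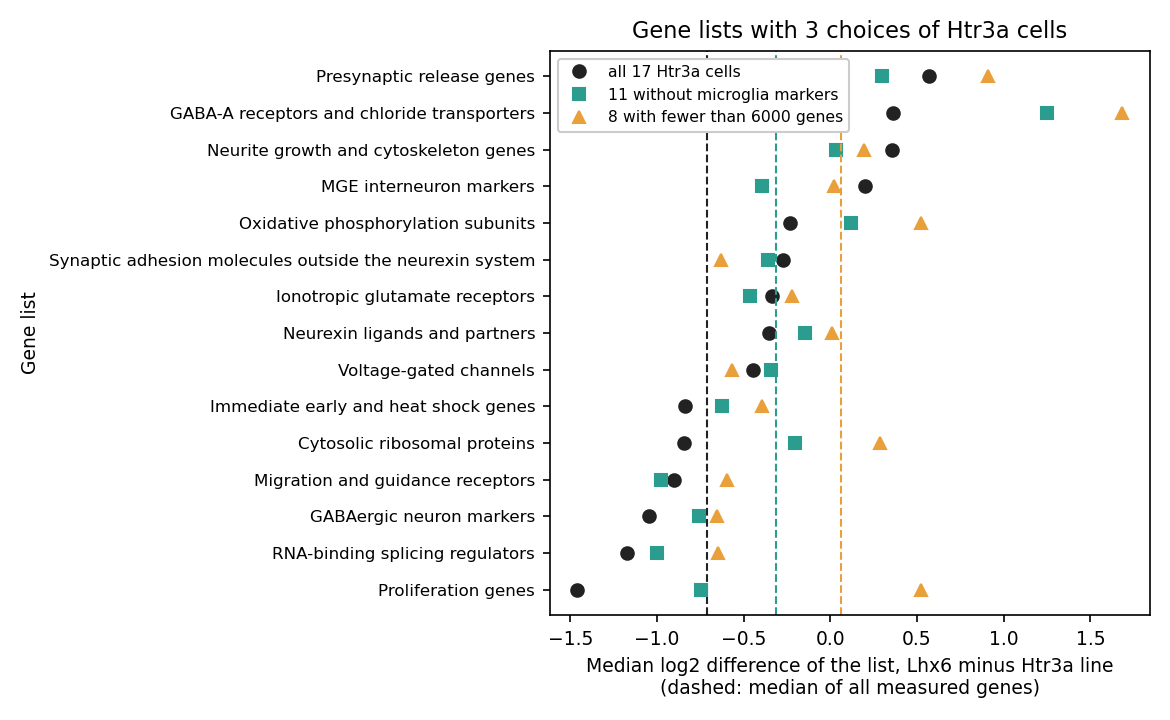
Median log2 difference of 15 gene lists, Lhx6 minus Htr3a line, with all 17 Htr3a-line cells (circles), the 11 without microglia markers (squares) and the 8 with fewer than 6000 genes (triangles); dashed lines give the median of all measured genes in the same setting. GABA-A receptor genes lie to the right of it in each setting (0.36, 1.25 and 1.69) and splicing regulators to the left (-1.17, -1.0 and -0.65), while ribosomal and proliferation genes cross over.

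Genes of migration and axon guidance were lower in 6 and higher in 2 of 21 cases (median -0.90), near the 27.6% and 7.34% of all genes, and 1 of the 2 higher calls (Robo2) ended when any 1 of 12 cells was left out. Ackr3, the scavenging receptor for the chemokine that guides interneurons, was found in 1 of 7 cells, at 265 CPM, and in 11 of 17 at 0 to 4038 CPM (median 97.6). It was 8.35-fold lower with a log2 difference of -3.87 (SD 3.05 and 4.19). Its partner Cxcr4 was low in both lines, at 6.41 against 11.9 CPM. Cdk5r1, the activator of the kinase Cdk5 in migrating neurons, was 5.25-fold lower, at 0 to 70.7 CPM (median 18.6) against 0.226 to 277 CPM (median 130.5), and 12 Htr3a-line cells lay above the highest Lhx6-line cell.

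Of 19 neurite growth genes 1 was higher and 1 lower, where 7.34% and 27.6% of all genes were. Basp1, a growth cone membrane protein, was at 242 to 1089 CPM (median 883) against 0 to 645 CPM (median 281), 2.95-fold higher with a log2 difference of 2.16 (SD 0.76 and 2.18). Dpysl2, the collapsin response mediator CRMP2, was at 21.1 to 359 CPM (median 162) against 13.6 to 3344 CPM (median 680), 3.86-fold lower. In Dpysl2 12 Htr3a-line cells exceeded the highest Lhx6-line cell. Of 36 adhesion molecules outside the neurexin system 8 were higher and 5 lower (median -0.28). The split was 7 higher and 8 lower of 34 without the cells with microglia markers (median -0.36). It was 8 higher and 10 lower of 33 with the cells of fewer than 6000 genes (median -0.63). These settings pass 12.7% and 17.3% of all genes as higher and 21.8% and 19.4% as lower. Without Lhx6-line cell 5, 3 of the 8 higher calls and 3 of the 5 lower calls were left. Without Lhx6-line cell 6, 5 of the 8 were left, and without Lhx6-line cell 1 or 3 or Htr3a-line cell 12 or 16, 3 of the 5.

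Counts for lists of dividing cells and ribosomes differed with the choice of Htr3a-line cells. Proliferation genes were lower in 9 and higher in 1 of 12 cases with all cells (median -1.46). Without the cells with microglia markers they were lower in 2 and higher in 2 of 6 (median -0.75). With the cells of fewer than 6000 genes they were lower in 0 and higher in 2 of 5 (median 0.52). Cytosolic ribosomal protein genes were lower in 6 of 32 cases (median -0.85), and in 2 of 32 in either subset (medians -0.20 and 0.29). By summed counts their median log2 ratio stayed negative, at -1.23 with all cells and -0.84 and -0.57 in the subsets. That of all genes was -0.43, -0.09 and -0.0046. Over all genes 27.6% were lower with all cells and 21.8% and 19.4% in the subsets, and 7.34%, 12.7% and 17.3% were higher. Rps15a was lower in each of these settings, with log2 differences of -1.88 and -1.65 in the 2 subsets. All 14 microglia markers were lower with all cells, whose marker sums are given above.

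Glutamatergic markers were scattered. Of 9 measured, 3 were higher, among them Neurod2 and Arpp21, and 1 lower (Bhlhe22), against 7.34% and 27.6% of all genes. Without Lhx6-line cell 7 only 1 of the higher calls was left, and without Htr3a-line cell 3, 5 or 17 that of Bhlhe22 ended. Neurod6, the gene of the Nex driver, was found in 2 of 7 and 8 of 17 cells, and cell 7 of the Lhx6 line alone held 2372 CPM. A Y-linked gene reached 10 counts in 5 of 7 Lhx6-line and 6 of 17 Htr3a-line cells, and the sex of the embryos was not labelled.

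A block of mitochondrial genes stood higher in the Lhx6 line, though the cells of the 2 lines overlapped in each gene. The mitochondrial genome encodes 13 protein subunits of the respiratory chain in 1 circular molecule, read out from long transcripts. Of the 13 genes 6 were at least 2-fold higher in the Lhx6 line and 0 lower, against 7.34% and 27.6% of all genes. The call of mt-Nd4l was lost without Lhx6-line cell 3 or 4 (log2 differences of 0.84 and 0.97). All mitochondrial counts together were similar, 0.852% to 2.10% of a cell's counts (median 1.34%) in the Lhx6 line and 0.369% to 5.93% (median 0.969%) in the Htr3a line. The 4 largest differences sat in 1 stretch of neighbouring genes, mt-Co2, mt-Atp8, mt-Atp6 and mt-Co3, from base 7013 to base 9390 of the mitochondrial genome on build GRCm38. Of the 17 Htr3a-line cells, 16 lay below the lowest Lhx6-line cell in mt-Co3, 15 in mt-Atp8 and 14 in mt-Atp6. For mt-Co2 the ranges were 45.8 to 725 CPM against 0 to 172 CPM. Those of mt-Nd3 (0.140 to 71.6 against 0 to 63.4 CPM) and mt-Nd4l (0 to 56.3 against 0 to 28.5 CPM) overlapped widely.

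In this stretch mt-Co3 (cytochrome c oxidase subunit III) was at 93.6 to 1581 CPM (median 942) in the Lhx6 line and 0 to 270 CPM (median 32.8) in the Htr3a line. It was 17.2-fold higher with a log2 difference of 4.64 (SD 1.32 and 1.92). A single Htr3a-line cell, cell 13 with microglia markers, reached the lowest Lhx6-line cell, cell 7. Without the cells with microglia markers the lines did not overlap, as in 2 (0.0165%) of the 12086 genes measured with all cells. The ATP synthase subunit mt-Atp6 was at 77.8 to 1323 CPM (median 958) against 5.21 to 153 CPM (median 40.9), 16.6-fold higher. The log2 differences of mt-Co2, mt-Atp8 and mt-Atp6 were 4.20, 3.96 and 4.18.

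Several genes elsewhere on the molecule did not pass. The cytochrome b gene mt-Cytb was at 1460 to 6758 CPM (median 2817) against 733 to 9288 CPM (median 2771), a log2 difference of 0.10. The values were -0.05 for mt-Nd1, -0.23 for mt-Nd2, -0.25 for mt-Nd5 and 0.08 for mt-Nd6, all subunits of complex I. Of the 6 higher genes, 5 have a near-identical copy in the nuclear genome. On build GRCm38 the pseudogenes Gm10222, Gm28438, Gm28437, Gm10925 and Gm28661 follow each other on the minus strand of chromosome 1 from 24612407 to 24615565, in the order of mt-Nd4l, mt-Nd3, mt-Co3, mt-Atp6 and mt-Co2. Of 31-base stretches of mt-Co2, mt-Atp6, mt-Co3, mt-Nd3 and mt-Nd4l, 98.1% to 100% also occur in another annotated transcript, against 0% in mt-Nd1, 6.55% in mt-Cytb and 13.5% in mt-Nd2. The share was 63.9% in mt-Co1 and 62.8% in mt-Nd4, and neither of these was called. For mt-Atp8 the share was 7.47%, all of it with its overlapping neighbour mt-Atp6. The gene lies opposite a gap between 2 of these pseudogenes, 233 bases long on both chromosomes. The sequence of that gap was not compared.

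The first 90 bases of mt-Co3 and of its copy are shown because a read from either cannot be assigned by sequence, and those of mt-Nd3 because they hold the only base in 345 that differs, printed in capitals (T3C, counted from the first base of the gene; 5′ to 3′, from GENCODE M21 transcripts). The intervals are chrM:8607-8696 (plus strand), chr1:24613882-24613971 (minus), chrM:9459-9548 (plus) and chr1:24613030-24613119 (minus).
mt-Co3: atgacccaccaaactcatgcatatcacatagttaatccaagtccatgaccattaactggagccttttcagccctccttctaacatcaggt
Gm28437: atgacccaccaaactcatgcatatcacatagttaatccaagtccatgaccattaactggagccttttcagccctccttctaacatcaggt
mt-Nd3: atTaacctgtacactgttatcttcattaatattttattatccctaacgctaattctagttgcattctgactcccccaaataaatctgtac
Gm28438: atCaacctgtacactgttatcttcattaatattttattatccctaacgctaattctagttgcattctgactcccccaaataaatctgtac

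Compared from the first base over the length of the copy, which leaves out the last 1 to 3 bases of each mitochondrial gene, mt-Co3 and Gm28437 were equal in 783 of 783 bases, mt-Atp6 and Gm10925 in 678 of 678 and mt-Co2 and Gm28661 in 681 of 681. The counts of these genes are therefore uncertain, since counting can give such reads to either place or to neither. The levels are given for the other types too. Over all passed cells mt-Co3 was at 93.6 to 4407 CPM in the 17 Lhx6-line cells. It was at 0 to 698 CPM in the 114 Htr3a-line cells, of which 100 lay below the lowest Lhx6-line cell. In the 17 Nex-line cells it was at 3.08 to 25.1 CPM, and all 17 lay below. The numbers of Htr3a-line cells below were 100 in mt-Atp8 and 96 in mt-Atp6. In mt-Co2 the Lhx6 line reached down to 0.164 CPM, and only 5 Htr3a-line cells and 1 Nex-line cell lay below it. In mt-Nd3 and mt-Nd4l the Lhx6 line reached 0 CPM, so no cell could lie below. Whether the lines differ in mitochondrial sequence, in reads or in mapping was not tested.

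**Figure D5:**
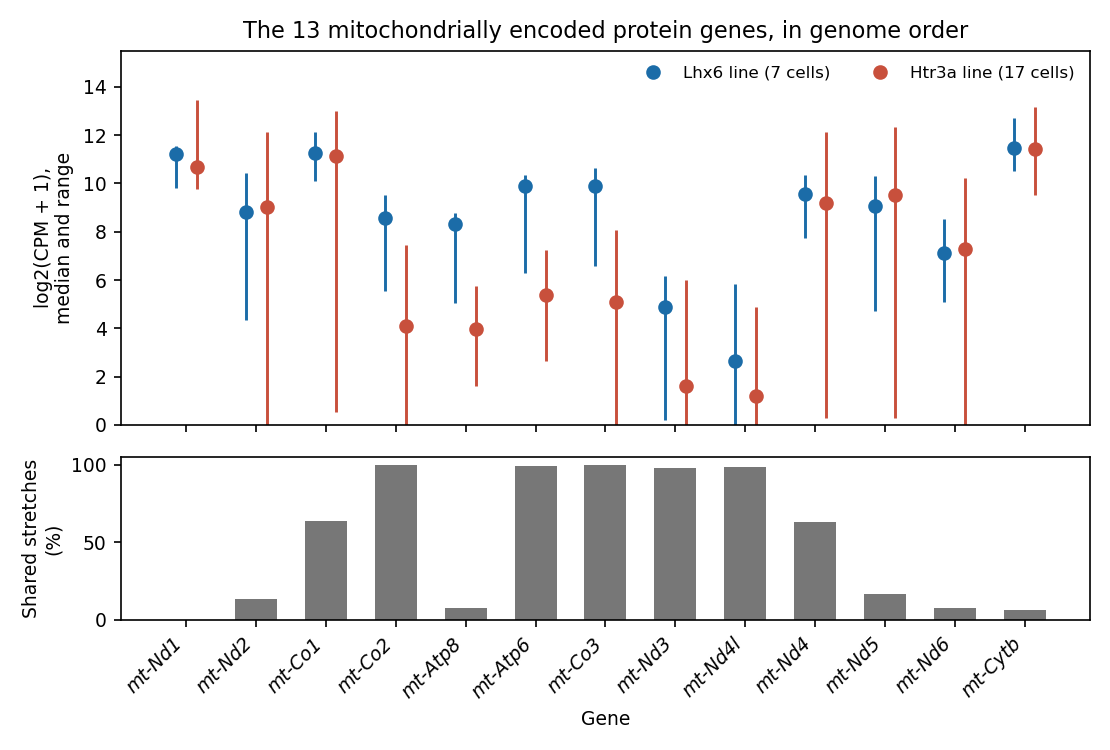
Upper panel: log2(CPM + 1) of the 13 mitochondrially encoded protein genes by line, as the median (point) and range (bar) of cells. Lower panel: percent of each gene's 31-base stretches that occur in another annotated transcript. The medians of the lines part from mt-Co2 to mt-Co3 (942 against 32.8 CPM for mt-Co3) and lie close at mt-Nd1 and mt-Cytb.

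The same lines could be set side by side in cells of the MGE-derived 1 label, 7 from the Lhx6 line and 11 from the Htr3a line. The 2 labels share the lines and may share animals. There 1887 (22.1%) of 8553 genes were at least 2-fold higher and 1261 (14.7%) lower in the Lhx6 line (median 0.38). Of the 12 genes named as higher 3 were higher there as well (Ranbp6, Esyt2 and Abtb2) and 0 lower. Of the 12 named as lower 3 were lower there (Angel2, Zfand5 and C9orf72) and 2 were higher (Gna11 and Thoc5). Vstm2a stood at a log2 difference of -5.26 in those cells, found in 1 of 7 and 11 of 11, against 5.32 in the cells of the MGE-derived 2 label. The log2 difference of mt-Co3 was 3.42, of Sst 2.16, of Lhx6 2.41 and of Maf -4.18. Of the 13 mitochondrial genes 5 were higher and 5 lower there, against 6 and 0 in the MGE-derived 2 cells. The GABA-A receptor list had 4 higher and 0 lower of 10 (median 1.32), and the splicing list 1 higher and 4 lower of 27 (median 0.35). Cytosolic ribosomal protein genes were lower in 19 and higher in 0 of 32 cases there, against 14.7% and 22.1% of all genes. Their median was -1.52, and -1.63 by summed counts.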

How the data were processed

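Single-cell RNA was sequenced from 162 cells, of which 24 are compared here. Per the submitters' processing notes, the authors used Trimmomatic, STAR and featureCounts with build GRCm38, and versions, strand setting and treatment of multiply mapped reads are not given in the sources used here. The deposited values are whole-number counts per Ensembl gene and cell. The authors' deposited normalized values (a signal scaled per cell) equal counts divided by 1 factor per cell within 0.1% for 99.8% of values and served as an alternative only.

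Of 22880 identifiers 22570 had a symbol and 310 did not, and summing by symbol left 22879 genes. CPM values are counts scaled to the total of the cell. A gene was measured where at least 4 of the 24 cells held a count, and called where the difference of mean log2(CPM + 1) and the log2 ratio of summed CPM (+ 0.1) both reached 1 in the same direction. With no animal named and 1 sample per line, edgeR and other count tests were not run, and no p-value is given. Named genes are the 12 per direction with the largest log2 difference among called genes that held 20 CPM or more in the higher line, had counts in 50% or more of its cells and stayed called without its highest cell, leaving out predicted, clone, pseudogene, mitochondrial and ribosomal RNA names. To these were added the drivers, markers, neurexins, Y-linked genes and up to 4 members of each of 29 lists (501 genes, 499 in the table). Rps15a, P2ry12, further list members beyond 4, the mitochondrial genes set side by side and Gm10320 were named after their values were seen. Some genes that this rule or the lists hold are not reported here, though counts and medians include them. The members and lists were chosen with earlier results of these data known.

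Depth was 4415109 to 19310050 counts per cell, and intervals are exact at the 95% level. The floor is 3 counts. No doublet caller was run, and 0 pairs of cells had identical counts. Each sample was taken as 1 aspirated cell, but 4 Htr3a-line cells held all 14 microglia markers. Whether a sample held RNA of more than 1 cell was not tested. Sequence overlap was read from GENCODE M21 transcripts on GRCm38 as shared 31-base stretches. Python 3.11.15, pandas 2.3.3, numpy 2.4.6, scipy 1.17.1 and matplotlib 3.10.9 were used, and the calculations were checked on simulated data. The alternatives were other pseudocounts, filters and scalings, thinning, each cell left out, subsets of Htr3a-line cells and, chosen after seeing the data, the limit of 6000 genes and centring.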

Additional observations from a re-analysis of the deposited data

Results flagged for a closer look

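In 14 of 39 genes read, 1 of the 7 Lhx6-line cells lay far from the other 6, its gap to the nearest being more than 0.568 of the range. Chance alone flags about 1 group in 20, and genes absent from most cells meet this readily. Values are log2(CPM + 1). Cell 2 was at 0 in Cyp46a1, Syt13 and Fbxl15, where the nearest cells stood at 6.17, 6.93 and 6.74, and cell 7 was at 0 in Abtb2 with the nearest at 7.30. Among genes lower in the line, cell 6 held Trp53inp2 at 0.356, cell 5 held Morn4 at 3.317 and Rdx at 7.643, and cell 1 held Ube4b at 3.467 and Cdc37 at 7.218, with the other cells at or near 0. Cell 7 held Nrxn2 at 9.225 and cell 1 held Nrxn3 at 1.032, with the nearest cells at 2.84 and 7.48. Of the Y-linked genes, Eif2s3y stood at 7.998 in cell 4, Kdm5d at 6.852 in cell 6 and Uty at 3.026 in cell 3.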

How the results depend on the processing

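The number of genes at least 2-fold higher in the Lhx6 line, 887, was 2298 by summed counts alone, 543 with a count in at least 12 cells, 1375 against the 3 Htr3a-line cells of like gene number and 2028 with both measures centred. The number of genes at least 2-fold lower in the Lhx6 line, 3332, was 1458 with a pseudocount of 10, 1197 with a count in at least 12 cells, 966 against the cells of like gene number, 1925 without the cells with microglia markers, 1453 with the cells of fewer than 6000 genes and 1637 centred. With the cells of fewer than 6000 genes the log2 difference of Junb stood at 0.0184 and the proliferation median at 0.52, both negative with all cells. Of 29 list medians 8 changed sign in at least 1 of the 2 subsets, 3 without the cells with microglia markers and 7 with the cells of fewer than 6000 genes, as did the median of all genes in the latter (-0.71 to 0.06). In the latter the ribosomal, oxidative phosphorylation and striatal medians went from -0.85, -0.23 and -1.20 to 0.29, 0.52 and 0.40, and in the former the median of markers of medial origin from 0.20 to -0.39. By summed counts the ribosomal median was -1.23 with all cells and -0.57 with the cells of fewer than 6000 genes. The cause was not tested. Of 171 listed or named genes past 2-fold, 56 lost the call without some single cell. No paired analysis was possible because the cells carry no shared replicate labels and no test was run.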
